A study of Mus musculus with 24 samples.

Results

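The 10 genes followed here by RNA sequencing of mouse liver belong to mitochondrial fatty acid oxidation. They are Cpt1a, Cpt2, Slc25a20, Acadm, Acadl, Acadvl, Hadha, Hadhb, Etfdh and Hadh. They were chosen by name, each matched 1 locus of the table, and they make up 10 of its 31027 loci. All 10 passed the filter on low values and none was at 0 in any library.

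Livers came from C57BL/6J mice of 4 genotypes that spent 16 weeks on either chow or high fat feed, with 3 libraries in each of the 8 groups. All mice carried AlbCre, a Cre recombinase driven by the albumin promoter, which acts mainly in hepatocytes. Other cells of the liver can keep the targeted genes. Control mice carried AlbCre alone. The others carried AlbCre with Jnk1flox/flox, with Jnk2flox/flox or with both alleles, and are called Jnk1, Jnk2 and Jnk1Jnk2 below. JNK1 (gene Mapk8) and JNK2 (gene Mapk9) are stress-activated protein kinases, and the design asks what their loss from hepatocytes does on each diet. No age or sex of the mice is given in the labels. Nothing in the labels ties each replicate to its own mouse, so the p-values reflect variation between libraries that may be technical.

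Long-chain fatty acids enter mitochondria as carnitine esters. CPT1A makes the ester at the outer membrane, the carrier SLC25A20 moves it across the inner membrane and CPT2 turns it back into an acyl-CoA. Inside, each turn of beta-oxidation runs through an acyl-CoA dehydrogenase, a hydratase, a hydroxyacyl-CoA dehydrogenase and a thiolase, and ETFDH passes the electrons of the first step to the respiratory chain. In liver these genes are known targets of the nuclear receptor PPAR alpha and serve fasting and ketone production.

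Values are FPKM, which divide a locus's fragments by its length and by the library's total, so levels can be compared between genes. Library sums ranged from 634802 to 873346 FPKM, and relative depth from 0.299 to 1.0 of the deepest library. The 3 high fat Jnk1Jnk2 libraries stood apart: their sums were the highest, 848984 to 873346 against at most 734294 elsewhere, and their values were lower the longer the transcript. Across genes, the Spearman correlation between length and a library's deviation from the mean was -0.641 to -0.586 in them and -0.206 to 0.413 in the other libraries. Results that rest on these libraries are given below as deposited. Where a member's call or the count of a pathway list changed, the result with that trend removed is given too. Marker results are as deposited only. Mapk8 was at most 2.47 FPKM in the groups labelled as lacking JNK1 and at least 3.38 elsewhere, and Mapk9 at most 7.79 in those labelled as lacking JNK2 and at least 9.01 elsewhere. The labelled tissue showed hepatocyte genes at high levels (Apoa1, the main HDL protein gene, at 5260 to 12429 FPKM). Alb was listed at 0 in 4 libraries and at a median of 20952 FPKM.

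The members were all abundant, but their levels differed among themselves. Acadm, the medium-chain acyl-CoA dehydrogenase gene (chr3:153922359-153944432, mm10, minus strand), had the highest mean over the 24 libraries, 344 FPKM. Hadh, the short-chain hydroxyacyl-CoA dehydrogenase gene (chr3:131233424-131272037, minus strand), followed with 263 FPKM. Acadvl, the very-long-chain dehydrogenase gene (chr11:70010192-70015407, minus strand), had 231. Hadhb, for the thiolase subunit of the trifunctional protein (chr5:30155289-30184583, plus strand), had 196, and Hadha, for its hydratase and dehydrogenase subunit (chr5:30118304-30154980, minus strand), had 121. Etfdh (chr3:79603788-79628767, minus strand) had a mean of 168 and Acadl, the long-chain dehydrogenase gene (chr1:66830853-66863267, minus strand), of 161. The carnitine shuttle genes came last apart from Cpt1a (chr19:3323301-3385733, plus strand; 157 FPKM): Slc25a20 (chr9:108662098-108684641, plus strand) had 111 and Cpt2 (chr4:107903982-107923589, minus strand) had 93.5.

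Between the lowest and the highest library the members varied by 1.8 times (Slc25a20) to 3.07 times (Cpt1a). The highest library was high fat Jnk2 replicate 3 for 5 members and high fat Jnk1Jnk2 replicate 3 for 4. For Acadvl it was chow Jnk1 replicate 3. In 3 genes the exons overlap a gene on the other strand, and whether counting used strand is not stated: Dvl2 covers 42.9% of the exon bases of Acadvl, 4930579G24Rik 3.7% of those of Etfdh and Garem2 0.859% of those of Hadha. These are shares of bases, not of signal, and how much Dvl2 adds to the values of Acadvl was not tested.

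**Figure D1:**
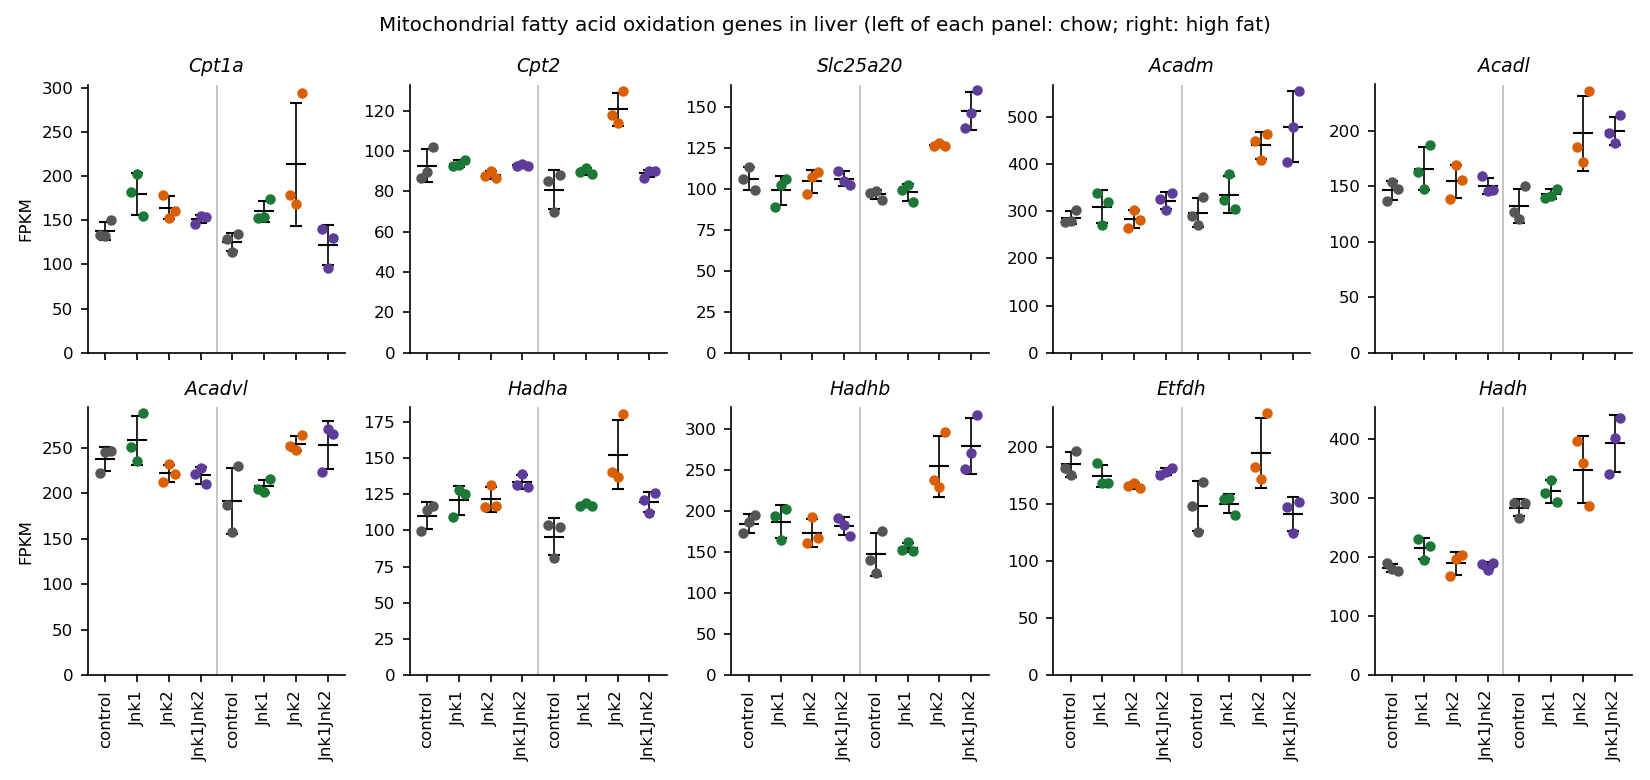
FPKM of the 10 genes in each library (points) with the group mean and SD (bars) in the 4 genotypes, on chow at the left of each panel and on high fat at the right. The chow groups lie close together, and on high fat Cpt2 is highest in Jnk2 (114 to 130 FPKM) while Slc25a20 is highest in Jnk1Jnk2 (137 to 160 FPKM).

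On chow, none of the 10 genes was called in any knockout against control. Called means an adjusted p under 0.05 (limma, Benjamini-Hochberg over the 10561 loci tested). Of all loci, 2.2% were called in either direction for Jnk1, 0.455% for Jnk2 and 0.161% for Jnk1Jnk2. At an unadjusted p under 0.05 stood 1 member for Jnk1, 0 for Jnk2 and 1 for Jnk1Jnk2. Cpt1a was at 133, 132 and 150 FPKM in chow control and at 182, 203 and 155 in chow Jnk1, groups that do not overlap, and its change was 0.37 ± 0.17 on the log2(FPKM + 1) scale (SE, adjusted p = 0.308). Hadha was at 99.5, 114 and 117 FPKM in chow control and at 131, 139 and 130 in chow Jnk1Jnk2, a difference of 0.28 ± 0.11 (adjusted p = 0.301) that also separated the groups. The other changes ranged from -0.15 (Etfdh in Jnk2) to 0.25 (Cpt1a in Jnk2). The 3 comparisons share the control libraries. The departure of the Jnk1Jnk2 change from the sum of both single changes was called for 0 members on chow (0 at an unadjusted p under 0.05, limma), against 1.53% of all loci in either direction.

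On high fat, loss of JNK1 alone gave no called member either, against 0.227% of all loci in either direction (limma; 2 members at an unadjusted p under 0.05). All 10 differences from control were above 0, from 0.02 for Slc25a20 to 0.35 for Cpt1a. Cpt1a was at 153, 154 and 174 FPKM in Jnk1 and at 129, 114 and 134 in control (0.35 ± 0.17, adjusted p = 0.421). Hadha was at 117, 119 and 117 FPKM against 104, 81.1 and 102 (0.30 ± 0.11, adjusted p = 0.262). In both genes the libraries of the groups do not overlap, but the differences did not pass the test. The share of all loci without such overlap was not counted.

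In livers lacking JNK2 alone, fatty acid oxidation genes were higher than in control on high fat. With limma 9 of 10 members rose, against 7.45% of all loci called higher, and the median change of the members was 0.57 beside 0.02 over all loci tested. In liver tissue a change in RNA per cell and a change in the share of cells that carry it cannot be told apart.

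All 3 carnitine shuttle genes rose in high fat Jnk2. Cpt2, for the inner membrane transferase, was at 118, 114 and 130 FPKM in Jnk2 and at 85.1, 69.7 and 87.9 in control. Its rise was 0.58 ± 0.08 on the log2 scale (adjusted p = 0.000211), and every Jnk2 library lay above every library of the other 7 groups. Slc25a20, for the carrier, was at 126, 128 and 126 FPKM against 97.6, 98.8 and 93.2, a rise of 0.39 ± 0.08 (adjusted p = 0.00493). The 3 Jnk2 libraries of Slc25a20 lay within 2 FPKM of each other. Cpt1a, for the rate-limiting outer membrane enzyme, was at 179, 168 and 294 FPKM against 129, 114 and 134, a rise of 0.72 ± 0.17 (adjusted p = 0.00835). The mean of Cpt1a was 214 ± 69.9 FPKM (SD, n = 3), with replicate 3 far above the others, and without that library the rise was 0.46 (adjusted p = 0.0375).

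The dehydrogenases of the first step rose together in Jnk2. Acadm was at 448, 408 and 464 FPKM in high fat Jnk2 and at 289, 270 and 331 in control, a rise of 0.57 ± 0.12 (adjusted p = 0.00394). Acadl was at 186, 172 and 236 FPKM against 127, 121 and 150, also a rise of 0.57 ± 0.12 (adjusted p = 0.00345). Acadvl, at 252, 248 and 264 FPKM against 187, 158 and 230, rose by 0.43 ± 0.11 (adjusted p = 0.0173). In each of the 3 genes the lowest Jnk2 library was above the highest control library. Etfdh, whose enzyme receives the electrons of these enzymes through a carrier, was at 183, 172 and 230 FPKM against 149, 126 and 170. It rose by 0.39 ± 0.11 (adjusted p = 0.0278), with groups separated by 2 FPKM.

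Both subunits of the trifunctional protein rose in high fat Jnk2. Hadhb was at 238, 229 and 297 FPKM against 141, 125 and 176, a rise of 0.79 ± 0.13 (adjusted p = 0.000538). Hadha was at 140, 137 and 180 FPKM against 104, 81.1 and 102, a rise of 0.66 ± 0.11 (adjusted p = 0.000758). Neither gene's groups overlap. Hadh, the enzyme for shorter chains, was at 397, 360 and 286 FPKM against 292, 267 and 292, a difference of 0.28 ± 0.11 that did not pass the test (adjusted p = 0.114). Its groups overlap through Jnk2 replicate 3, the library that was highest of its group at 8 of the other 9 members. Without that library Hadh was called (0.41, adjusted p = 0.0198) and Etfdh was not (0.27, adjusted p = 0.121). With array weights, which give less weight to libraries that vary more, Hadh was also called (0.38, adjusted p = 0.00322).

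The calls in Jnk2 rest on the spread shared by all 24 libraries. In a fit of these 2 groups alone the changes were as large, but 0 members were called, with adjusted p from 0.0827 to 0.258 for the 9 genes, and the loci called fell from 1311 to 126. Control replicate 2 had the lowest value of its group for 9 of 10 members, and without it, as without control replicate 1, 7 members were called, all but Acadvl, Etfdh and Hadh.

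**Figure D2:**
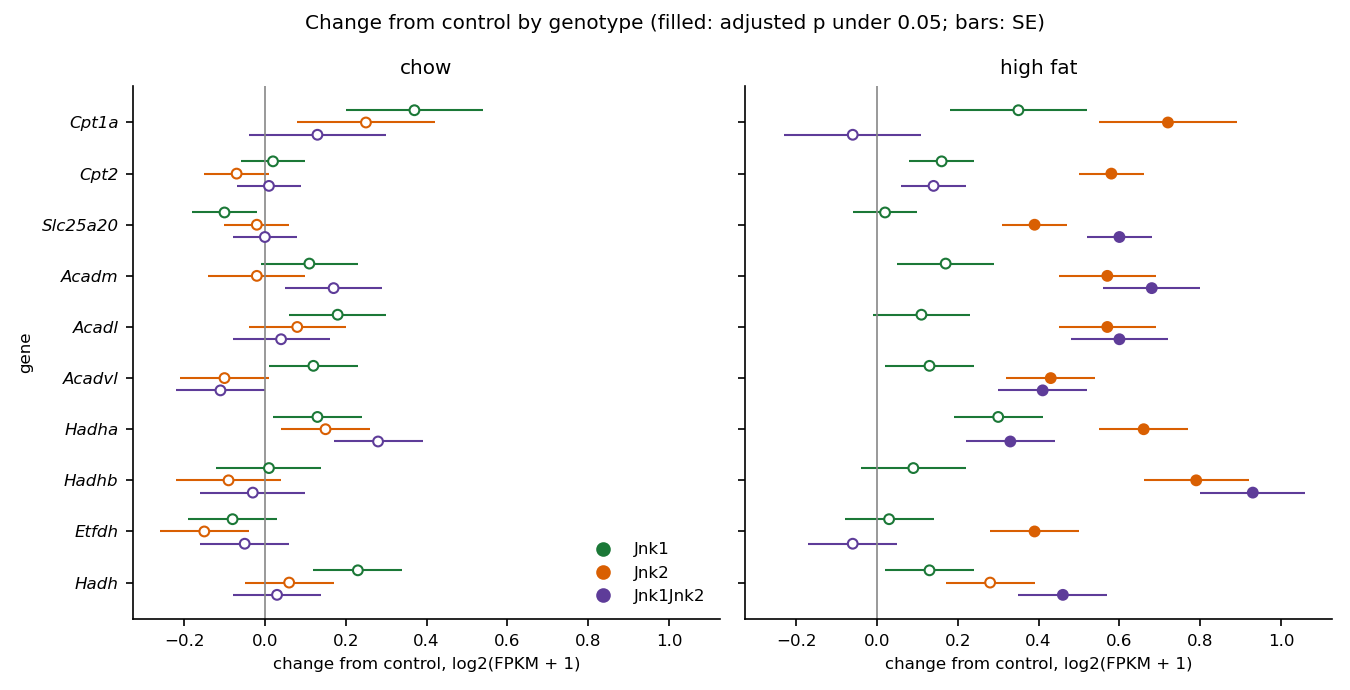
Change of each gene from control (points, log2 scale, bars SE) for Jnk1, Jnk2 and Jnk1Jnk2 on chow (left) and on high fat (right), with filled points for an adjusted p under 0.05. No point is filled on chow, 9 are filled for Jnk2 and 7 for Jnk1Jnk2 on high fat, where Cpt1a, Cpt2 and Etfdh of Jnk1Jnk2 lie near 0.

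In livers lacking both kinases, 7 of 10 members rose against control on high fat, and the 3 others stayed uncalled: Cpt1a, Cpt2 and Etfdh. Of all loci, 19.6% were called higher, so calls were far more common in this comparison than in Jnk2. The median change of the members was 0.44 beside -0.07 over all loci. The comparison uses the same control libraries as that of Jnk2.

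The carnitine shuttle was split in high fat Jnk1Jnk2. Slc25a20 was at 137, 146 and 160 FPKM and rose by 0.60 ± 0.08 against control (adjusted p = 1.26e-05), and all 3 libraries were above those of the other 7 groups. Cpt2 was at 86.8, 89.9 and 90.1 FPKM, a difference of 0.14 ± 0.08 (adjusted p = 0.162). Cpt1a was at 140, 95.9 and 130 FPKM, a difference of -0.06 ± 0.17 (adjusted p = 0.786), and its libraries lay on both sides of the control values.

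Among the dehydrogenases of Jnk1Jnk2, Acadm was at 405, 479 and 554 FPKM and rose by 0.68 ± 0.12 (adjusted p = 0.000118). Acadl, at 198, 189 and 214 FPKM, rose by 0.60 ± 0.12 (adjusted p = 0.000321). Acadvl, at 223, 271 and 265 FPKM, rose by 0.41 ± 0.11 (adjusted p = 0.00483), although its replicate 1 fell below the highest control library. Etfdh, whose enzyme receives the electrons of all 3 through a carrier, was at 148, 125 and 152 FPKM, overlapping control (-0.06 ± 0.11, adjusted p = 0.683).

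Hadhb had the largest change of the members in Jnk1Jnk2: it was at 251, 271 and 317 FPKM and rose by 0.93 ± 0.13 (adjusted p = 1.23e-05). Its partner Hadha, at 121, 112 and 126 FPKM, rose by 0.33 ± 0.11 (adjusted p = 0.0192). Hadh was at 341, 401 and 435 FPKM and rose by 0.46 ± 0.11 (adjusted p = 0.00247), with all libraries above control. Replicate 3 of this group was the highest at 8 of 10 members. Its summed skeletal muscle markers were 488 FPKM, against 1.38 and 1.62 in replicates 1 and 2, and their part in the result was not tested. Without it 6 members were called, all of the 7 but Hadha.

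The scaling of these libraries and the spread used moved the count. In a fit of these 2 groups alone 5 were called, without Acadvl (adjusted p = 0.0847) and Hadha (adjusted p = 0.081). With array weights Hadha was at 0.23 (adjusted p = 0.0558). After quantile normalization 4 members were called, Slc25a20, Acadm, Acadl and Hadhb. With median-of-ratios size factors 8 were called, the 7 and Cpt2, and the split of all called loci went from 2072 higher and 3338 lower to 2782 and 2815. With the transcript length trend removed the same 7 members were called, and the 2 genes with the longest transcripts moved most. Hadha (4017 bases) went from 0.33 to 0.68 (adjusted p = 1.53e-05) and Cpt1a (4317 bases) from -0.06 to 0.32 (adjusted p = 0.0761). Cpt2, with the shortest median transcript (1694 bases), went to -0.01 and Etfdh, at 2305 bases, to -0.02. These lengths are medians over a gene's annotated transcripts, which need not be the length of the transcript expressed. In Jnk2 the same step left the rises of Cpt1a at 0.72 and of Hadha at 0.65.

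**Figure D3:**
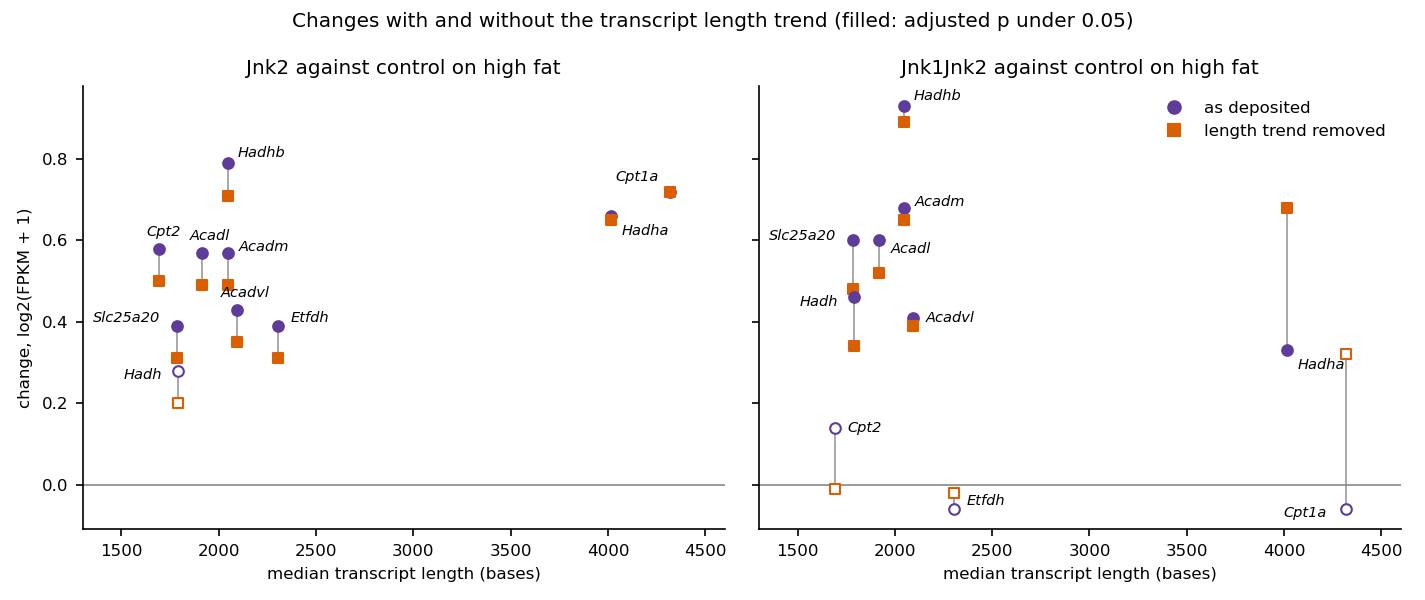
Change from control on high fat against the median length of the gene's transcripts (bases), as deposited (circles) and with the length trend removed (squares), for Jnk2 (left) and Jnk1Jnk2 (right), with filled symbols for an adjusted p under 0.05. In Jnk1Jnk2 Hadha and Cpt1a, with transcripts of 4017 and 4317 bases, move up by the most, and the Jnk2 changes move little.

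The groups Jnk1Jnk2 and Jnk2 on high fat were compared directly, a comparison added after their values had been seen. In Jnk1Jnk2 4 members were lower (33.2% of all loci were) and 1 was higher (15.3% of all loci were), and the median over all loci was -0.14. Cpt1a was lower by -0.78 ± 0.17 (adjusted p = 0.00107), Cpt2 by -0.44 ± 0.08 (adjusted p = 0.000435) and Etfdh by -0.45 ± 0.11 (adjusted p = 0.00304). For these 3 genes no Jnk1Jnk2 library reached the lowest Jnk2 library, and with the length trend removed their differences were -0.39, -0.51 and -0.33 and stayed past the threshold. Hadha was lower by -0.33 ± 0.11 (adjusted p = 0.0181) as deposited and stood at 0.03 (adjusted p = 0.856) with the length trend removed. Slc25a20 was higher by 0.22 ± 0.08 (adjusted p = 0.0392), and by 0.18 (adjusted p = 0.15) without the trend. The other 5 members were not called, with differences from -0.01 (Acadvl) to 0.18 (Hadh). The split depends on scaling. With size factors 3 were lower, Cpt1a (-0.64), Cpt2 (-0.30) and Etfdh (-0.31), and 3 higher, Slc25a20 (0.35), Hadhb (0.27, adjusted p = 0.0454) and Hadh (0.32, adjusted p = 0.0239). After quantile normalization 5 were lower, the 4 and Acadvl (-0.27, adjusted p = 0.0422), and 0 higher. In a fit of these 2 groups alone only Cpt2 was called (adjusted p = 0.0213). Without Jnk2 replicate 3, as without Jnk1Jnk2 replicate 2, 3 members were called: Cpt1a, Cpt2 and Etfdh.

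The departure from the sum of the single knockouts on high fat, which uses the same Jnk2 and Jnk1Jnk2 libraries, was called for 4 members. In Jnk1Jnk2 the change of Cpt1a was below the sum of the Jnk1 and Jnk2 changes by -1.13 ± 0.24 (adjusted p = 0.00175), that of Cpt2 by -0.59 ± 0.12 (adjusted p = 0.00117), that of Hadha by -0.64 ± 0.16 (adjusted p = 0.00464) and that of Etfdh by -0.48 ± 0.16 (adjusted p = 0.0239). Of all loci, 24.4% departed downward. The other 6 members were not called and ranged from -0.15 (Acadvl) to 0.20 (Slc25a20). With size factors Slc25a20 was called above the sum (0.33, adjusted p = 0.043) and Etfdh was not called (-0.34, adjusted p = 0.0733), and after quantile normalization Acadvl was also called below it (-0.39, adjusted p = 0.0434). In a fit of only the groups compared Etfdh was not called (adjusted p = 0.0933). With the length trend removed 2 of the 4 were called, Cpt1a at -0.70 (adjusted p = 0.0191) and Cpt2 at -0.70 (adjusted p = 0.00116), while Hadha stood at -0.23 and Etfdh at -0.37.

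Ratios within a library take out its overall scale. The ratio of Hadhb to Hadha FPKM was 2.07, 2.41 and 2.52 in high fat Jnk1Jnk2, a mean of 2.33 ± 0.236 (SD, n = 3), and 1.29 to 1.78 in the other 21 libraries. In high fat Jnk2, where both genes rose, it was 1.7, 1.67 and 1.65, within the range of chow control (1.64 to 1.74). Hadha has the longer transcripts of the pair, 4017 against 2045 bases, so the length trend moves this ratio in high fat Jnk1Jnk2. The ratio of Slc25a20 to Cpt2 was 1.57, 1.62 and 1.78 in high fat Jnk1Jnk2, above the highest of the other libraries, 1.42 in high fat control. The medians of their annotated transcripts are alike (1783 and 1694 bases), but their merged exons are not (4844 and 2391 bases). How far the length trend moves the ratio of Slc25a20 to Cpt2 was not tested. Against Cpt1a, Slc25a20 stood at 0.976, 1.52 and 1.24 in high fat Jnk1Jnk2 and at 0.427 to 0.868 elsewhere. Cpt1a has far longer transcripts (4317 bases), so the length trend moves this ratio too in high fat Jnk1Jnk2.

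**Figure D4:**
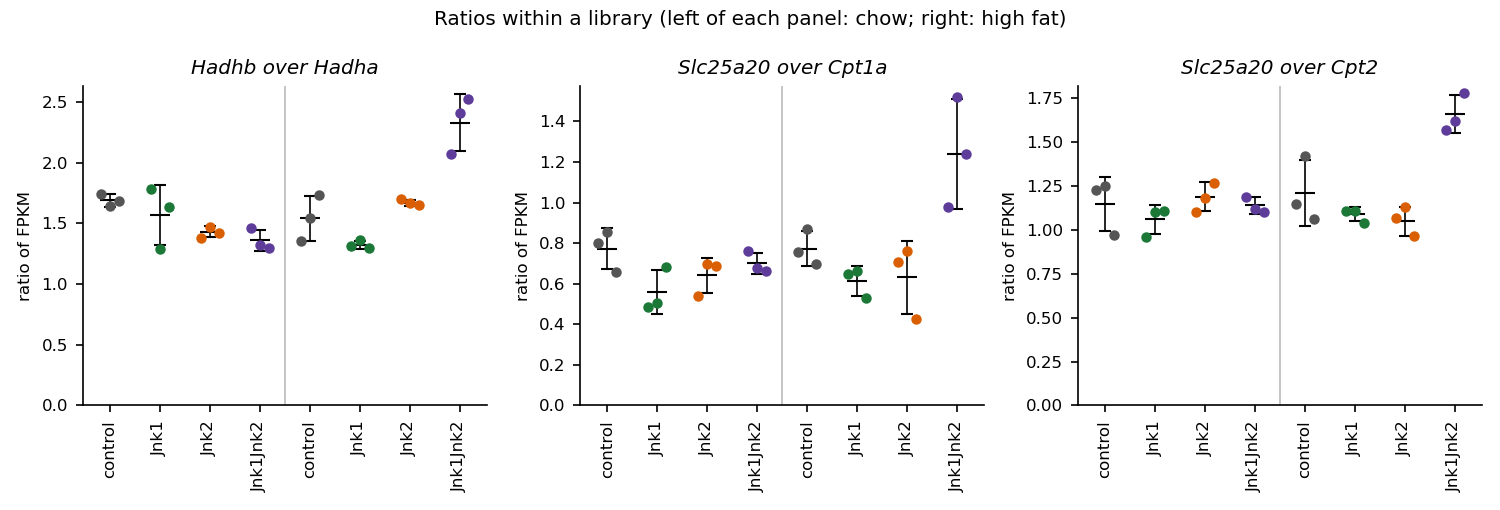
Ratios of FPKM within each library (points, with group mean and SD) for Hadhb over Hadha, Slc25a20 over Cpt1a and Slc25a20 over Cpt2, on chow at the left of each panel and on high fat at the right. The 3 high fat Jnk1Jnk2 libraries lie above all other libraries in each panel.

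Hadha and Hadhb lie head to head on chromosome 5. Their RefSeq start sites are 273 bases apart on opposite strands, and the windows of 250 bases before to 50 after each start share 228 bases. The sequence before the Hadhb start is shown because the pair rose together in Jnk2 and, as deposited, by unequal amounts in Jnk1Jnk2. Removing the length trend raised the change of Hadha in Jnk1Jnk2, as given above. The sequence shown is chr5:30155003-30155252 (plus strand, RefSeq, GRCm38.p6, the mm10 assembly), with the bases that the Hadha window also covers in capitals.
Hadhb: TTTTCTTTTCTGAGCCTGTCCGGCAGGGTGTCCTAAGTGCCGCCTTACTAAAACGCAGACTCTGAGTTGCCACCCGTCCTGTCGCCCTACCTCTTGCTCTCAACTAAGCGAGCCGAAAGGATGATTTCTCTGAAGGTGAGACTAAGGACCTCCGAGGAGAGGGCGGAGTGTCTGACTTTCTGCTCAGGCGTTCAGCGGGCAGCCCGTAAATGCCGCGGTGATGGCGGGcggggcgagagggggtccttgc

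Since PPAR alpha and its partner RXR bind repeats of the letters AGGTCA, the start windows of all 10 members, each 300 bases long, were searched for them on both strands. All 10 had an entry in the RefSeq table. The single copy AGGTCA was found in 3 of them (Cpt1a, Acadm and Acadvl), and in 16.3% of all 32851 windows. A direct repeat with 1 base between the copies, with at most 2 mismatches over 12 bases, was found in Slc25a20 alone of the 10 and in 3.86% of all windows. In Cpt1a, a member without a rise in Jnk1Jnk2, the copy starts at base -94 on the opposite strand, and its window before the start (chr19:3323051-3323300, plus strand) is shown with the copy in capitals.
Cpt1a: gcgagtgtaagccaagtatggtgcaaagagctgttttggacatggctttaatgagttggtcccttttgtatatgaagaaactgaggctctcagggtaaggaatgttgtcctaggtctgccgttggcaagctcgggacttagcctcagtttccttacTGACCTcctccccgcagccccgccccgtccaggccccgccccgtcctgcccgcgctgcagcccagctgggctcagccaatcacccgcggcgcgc
The shorter stretches show the matches of genes that rose in both Jnk2 and Jnk1Jnk2, again in capitals: Acadm at base -249 on the opposite strand (chr3:153944864-153944893, minus strand), Acadvl at base -87 (chr11:70015498-70015527, minus strand), and the repeat of Slc25a20 from base 7 after the start (chr9:108662134-108662163, plus strand, 2 mismatches).
Acadm: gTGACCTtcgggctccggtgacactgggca
Acadvl: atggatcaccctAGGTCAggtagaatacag
Slc25a20: ctgaatgtAGGTGAAAGGTCGgcggagccg
In Jnk1Jnk2, Cpt1a, which holds the single copy, was not called, and Acadm, which also holds it, rose. Cpt2, which holds neither, was not called, and Hadhb, which also holds neither, rose. Bases outside these windows were not searched, and any part of the letters in the changes was not tested.

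Hadh was the member that went with diet in every genotype. Between high fat and chow, 1 member rose in control (10.1% of all loci were higher) and 1 in Jnk1 (9.22% of all loci). It was Hadh in both. In control Hadh went from 190, 180 and 176 FPKM on chow to 292, 267 and 292 on high fat, a rise of 0.64 ± 0.11 (adjusted p = 0.000964). In Jnk1 it went from 230, 195 and 219 to 308, 331 and 294, a rise of 0.53 ± 0.11 (adjusted p = 0.00378). It was the only member called higher on high fat in all 4 genotypes, by 0.86 ± 0.11 in Jnk2 (adjusted p = 5.07e-05) and by 1.07 ± 0.11 in Jnk1Jnk2 (adjusted p = 1.28e-06).

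The other 9 members were not called in control. Etfdh differed by -0.32 ± 0.11 (adjusted p = 0.0543), Acadvl by -0.32 ± 0.11 (adjusted p = 0.0543) and Hadhb by -0.34 ± 0.13 (adjusted p = 0.0749). These 3 were called lower with size factors, quantile normalization, array weights or the length trend removed, and without high fat control replicate 3. Cpt2 was also called lower with size factors (-0.25, adjusted p = 0.0248) and with the length trend removed (-0.25, adjusted p = 0.0381).

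In Jnk2, 7 members were higher on high fat than on chow (19.7% of all loci were). Cpt2 went from 87.8, 90.3 and 86.5 FPKM to 118, 114 and 130 (0.45 ± 0.08, adjusted p = 0.000839), and Acadm from 264, 303 and 282 to 448, 408 and 464 (0.64 ± 0.12, adjusted p = 0.00086). Hadhb, from 161, 193 and 167 FPKM to 238, 229 and 297, rose by 0.54 ± 0.13 (adjusted p = 0.0045). The other rises were Hadh, Acadl (0.34, adjusted p = 0.0356), Hadha (0.31, adjusted p = 0.0431) and Slc25a20 (0.28, adjusted p = 0.0208). Size factors, quantile normalization, removal of the length trend, the fit of the 2 groups alone and the fit without chow Jnk2 replicate 1 each left 4 called, Cpt2, Acadm, Hadhb and Hadh. That replicate was lowest of its group at 7 members. Its summed skeletal muscle markers were 114 FPKM, against 1.85 and 16.5 in replicates 2 and 3. Its summed neutrophil markers were 135 FPKM, against 18.9 and 20.8. Markers of other cells moved with this diet difference. Higher were 6 of 8 macrophage loci (median 0.81) and 5 of 6 endothelial loci (median 0.65). So were 4 of 6 stellate loci and 3 of 4 erythroid loci. Of 8 hepatocyte loci 2 were higher and 4 lower (median -0.48), where 6.39% of all loci were lower. The part of all these markers in the members' changes was not tested.

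In Jnk1Jnk2, 5 members were higher on high fat than on chow (30.1% of all loci were) and 1 was lower (26.8% of all loci were). Slc25a20 went from 111, 105 and 102 FPKM to 137, 146 and 160 (0.47 ± 0.08, adjusted p = 0.000122). Acadm rose by 0.56 ± 0.12 (adjusted p = 0.000582), Acadl by 0.41 ± 0.12 (adjusted p = 0.0054) and Hadhb by 0.61 ± 0.13 (adjusted p = 0.000505), beside Hadh. Etfdh fell from 176, 178 and 182 FPKM to 148, 125 and 152, by 0.34 ± 0.11 on the log2 scale (adjusted p = 0.0154). The split depends on scaling: after quantile normalization Cpt1a, Cpt2, Hadha and Etfdh were called lower and only Hadh higher. With the length trend removed Slc25a20 stood at 0.21 (adjusted p = 0.0643) and Acadl at 0.20 (adjusted p = 0.148), Acadm, Hadhb and Hadh were called higher, and Etfdh (-0.42, adjusted p = 0.00262) and Cpt2 (-0.36, adjusted p = 0.0018) lower. Without high fat Jnk1Jnk2 replicate 2 Etfdh was not called. In this genotype too 6 of 8 macrophage loci and 4 of 6 stellate loci were higher on high fat, with 1 of 6 endothelial loci higher and 1 lower, and of 8 hepatocyte loci 3 were higher and 4 lower. Their part was not tested.

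The interaction of diet and genotype asks whether the knockout's difference from control changed between diets. For Jnk1 it was called for 0 members (0 at an unadjusted p under 0.05, limma) and 0% of all loci (545 loci at an unadjusted p under 0.05). For Jnk2 it was called higher on high fat for 7 members, against 6.18% of all loci, with the largest values at Hadhb (0.89 ± 0.18, adjusted p = 0.00738) and Cpt2 (0.65 ± 0.12, adjusted p = 0.00376). Hadhb in Jnk2 overlapped control on chow (161, 193 and 167 against 173, 187 and 195 FPKM) and lay above it on high fat. For Jnk1Jnk2 it was called for 6 members, against 15.8% of all loci, led by Hadhb (0.96 ± 0.18, adjusted p = 0.000741) and Slc25a20 (0.60 ± 0.12, adjusted p = 0.000949). With the length trend removed 3 of the 6 were called for Jnk1Jnk2, Slc25a20 (0.38, adjusted p = 0.0322), Acadvl (0.41, adjusted p = 0.0263) and Hadhb (0.83, adjusted p = 0.0012), and after quantile normalization Slc25a20 (0.35, adjusted p = 0.0293) and Hadhb (0.69, adjusted p = 0.00855). The count for Jnk2 ran from 2 to 7 as single libraries of the 4 groups were left out, and Cpt2 and Hadhb were called each time. It was 2 without chow control replicate 2, chow Jnk2 replicate 1 or high fat control replicate 2, 3 without chow control replicate 3, chow Jnk2 replicate 3, high fat control replicate 1 or high fat Jnk2 replicate 3, and 4 without chow Jnk2 replicate 2 or high fat Jnk2 replicate 1.

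Over all 8 groups, the order of levels differed between members. Cpt2 was highest in high fat Jnk2 (121 FPKM), whose libraries did not overlap those of the next group, and the means of the other 7 groups, from 80.9 to 93.8, overlapped their neighbours. Slc25a20 was highest in high fat Jnk1Jnk2 (148), then high fat Jnk2 (127), then 6 groups from 96.5 to 106 that overlapped, and both upper steps were free of overlap. For Acadm and Hadhb, high fat Jnk1Jnk2 (479 and 280) and high fat Jnk2 (440 and 255) overlapped each other and stood clear of the next group. Neighbours overlapped throughout the order of Cpt1a (214 in high fat Jnk2 to 122 in high fat Jnk1Jnk2), of Acadl and of Acadvl. High fat control had the lowest mean at Cpt2, Slc25a20, Acadl, Acadvl, Hadha and Hadhb. Summed over the members, high fat Jnk2 libraries held 2136 to 2508 FPKM, high fat Jnk1Jnk2 2052 to 2444 and high fat control 1431 to 1768. As a percent of the library's own sum this was 0.303 to 0.354, 0.242 to 0.287 and 0.205 to 0.264, so the Jnk1Jnk2 libraries overlapped control on that scale.

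The wider pathway was followed in a list of 30 other genes, 29 of them tested. None was called in any knockout on chow or in Jnk1 on high fat (limma; at an unadjusted p under 0.05 stood 4 for Jnk1, 2 for Jnk2 and 3 for Jnk1Jnk2 on chow, and 3 for Jnk1 on high fat). In high fat Jnk2, 11 were higher (7.45% of all loci were) and 1 lower (4.96% of all loci were) than in control, with a median of 0.27 beside 0.02 over all loci. In a fit of these 2 groups alone Acot2 was the only one called. Acot2, a mitochondrial acyl-CoA thioesterase gene, rose from 6.35 ± 1.04 to 22.2 ± 5.18 FPKM (SD, n = 3), by 1.65 ± 0.15 (adjusted p = 2.21e-06). Crat, for carnitine acetyltransferase, rose from 17.4 ± 3.86 to 36.3 ± 7.27 FPKM (1.03 ± 0.13, adjusted p = 6.15e-05). Slc22a5, for the carnitine importer of the cell membrane, rose by 0.80 ± 0.14 (adjusted p = 0.000898), and the acyl-CoA dehydrogenase gene Acad11 by 0.53 ± 0.09 (adjusted p = 0.00111). Eci1, for the isomerase that handles unsaturated chains, rose by 0.59 ± 0.11 (adjusted p = 0.00193). The 1 that fell was Acad9, an acyl-CoA dehydrogenase gene also needed for assembly of complex I (-0.44 ± 0.08, adjusted p = 0.0011).

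In high fat Jnk1Jnk2, 14 of the 29 were higher (19.6% of all loci were) and 5 lower (31.6% of all loci were) than in control, with a median of 0.29 beside -0.07. Removing the length trend left 15 higher and 3 lower, against 17.3% and 17.1% of the 9452 loci with a known length. Hsd17b10, for a dehydrogenase of short and branched chains, rose by 1.22 ± 0.15 (adjusted p = 5.49e-06). Etfb, for a subunit of the electron carrier between the acyl-CoA dehydrogenases and ETFDH, rose from 356 to 729 FPKM (1.03 ± 0.11, adjusted p = 1.24e-06), while Etfdh itself was not called. Etfa, for the other subunit of the carrier, was at 244 FPKM in control and 283 in Jnk1Jnk2, with overlapping libraries. It was not called as deposited and was called higher with size factors. Eci1 rose by 0.84 ± 0.11 (adjusted p = 7.31e-06), Eci2 by 0.60 ± 0.09 (adjusted p = 3.5e-05) and Acot2 by 1.12 ± 0.15 (adjusted p = 1.11e-05). Mut, for the methylmalonyl-CoA mutase of odd-chain breakdown, fell by 0.60 ± 0.09 (adjusted p = 3.28e-05). Acad11, higher in Jnk2, was lower in Jnk1Jnk2 as deposited (-0.24 ± 0.09, adjusted p = 0.0366), was not called with size factors (-0.14, adjusted p = 0.187) and was higher with the length trend removed (0.23, adjusted p = 0.011). The same step took Etfb to 0.64, Hsd17b10 to 0.85, Eci1 to 0.52 and Mut to -0.30, all still called.

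Between high fat and chow, 2 of the 29 were higher and 6 lower in control, where 10.1% and 6.19% of all loci were. In Jnk1 0 were higher and 1 lower (9.22% and 5.81% of all loci). In Jnk2 11 were higher and 0 lower (19.7% and 6.39% of all loci). With size factors the count in Jnk2 was 7 higher and 2 lower, against 12.3% and 11.4% of loci. With the length trend removed it was 9 and 2, against 13% and 11.6%. In Jnk1Jnk2 15 were higher and 4 lower (30.1% and 26.8% of all loci). In Jnk1Jnk2 the count was 10 higher and 3 lower with the length trend removed, against 19.9% and 21.8% of loci. Slc22a5 (-0.61 ± 0.14, adjusted p = 0.00551), Acot2 (-0.65 ± 0.15, adjusted p = 0.00759) and Crat (-0.47 ± 0.13, adjusted p = 0.0206) fell with the diet in control. The interaction with diet was called for 8 of them in Jnk2, all higher (6.18% of all loci), and for 13 higher and 4 lower in Jnk1Jnk2 (15.8% and 19.1% of all loci). With the length trend removed the Jnk1Jnk2 count was 12 higher and 3 lower, against 10.5% and 11.3% of loci. Mecr, Hsd17b10 and Acadsb were then not called, and Acad10 was called higher. Pcca, Acad9 and Echs1 were also called lower in Jnk2 with size factors, quantile normalization, array weights or the length trend removed.

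Genes that regulate the pathway were followed in Jnk1Jnk2 on high fat, a comparison in which calls were common among loci of any kind. Of 12 regulators at 13 tested loci, 3 loci were higher and 6 lower than in control, where 19.6% and 31.6% of all loci were. These counts do not set the regulators apart from other loci. In Jnk2 only Acaca, for the acetyl-CoA carboxylase that makes the CPT1 inhibitor malonyl-CoA, was called (-0.76 ± 0.12, adjusted p = 0.000296). In Jnk1Jnk2 Acaca fell from 5.15 to 1.55 FPKM (-1.27 ± 0.12, adjusted p = 3.16e-07). Ppara, for the receptor that drives these genes, fell from 47.3 to 29 FPKM (-0.69 ± 0.11, adjusted p = 5.47e-05), and Rxra, for its partner, from 89.8 to 59 (-0.59 ± 0.11, adjusted p = 0.000296). The corepressor gene Ncor1 fell by 1.12 ± 0.17 (adjusted p = 3.49e-05), the coactivator gene Ncoa1 by 0.79 ± 0.09 (adjusted p = 2.38e-06) and Lpin1, for a coactivator and lipid phosphatase, by 1.11 ± 0.45 (adjusted p = 0.048). Esrra, for a nuclear receptor of mitochondrial genes, rose by 0.70 ± 0.12 (adjusted p = 9.95e-05), and Sirt3, for the mitochondrial deacetylase, by 0.33 ± 0.12 (adjusted p = 0.0216). Mlycd, for malonyl-CoA decarboxylase, has 2 loci in the table, at 0.91 ± 0.11 (adjusted p = 2.46e-06) and 0.18 ± 0.11 (adjusted p = 0.18). Ppargc1a (-0.31 ± 0.21), Ppargc1b (-0.25 ± 0.19) and Acacb (-0.00 ± 0.23) were not called. With the length trend removed 3 loci were higher and 5 lower, against 17.3% and 17.1% of loci: Acaca stood at -0.60, Ncor1 at -0.54, Ncoa1 at -0.28, Ppara at -0.59 and Rxra at -0.48, all still called lower. Sirt3 (0.12, adjusted p = 0.326) and Lpin1 (-0.75, adjusted p = 0.212) were then not called, and Acacb, for the carboxylase at the mitochondrial surface, was called higher (0.64, adjusted p = 0.0164). On chow none of the 13 loci was called in Jnk1Jnk2 (limma; 4 at an unadjusted p under 0.05), with the largest difference at Lpin1 (1.11 ± 0.45, adjusted p = 0.318).

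Markers of some other liver cells also differed from control on high fat. The 6 endothelial genes summed to 81.2 to 83.1 FPKM in Jnk2 and 71.4 to 83.1 in Jnk1Jnk2, against 51.4 to 56.5 in control. In Jnk2 5 of 6 were called higher, where 7.45% of all loci were. In Jnk1Jnk2 1 was higher and 2 lower, where 19.6% and 31.6% of all loci were. The 5 cholangiocyte genes summed to 35.1 to 62.8 FPKM in Jnk1Jnk2 and 18.2 to 25.4 in control, with Spp1 reaching 60.3 and Krt19 at most at 2.21 and Epcam at 1.07 FPKM in any library. Erythroid genes summed to 231 to 487 FPKM in Jnk2, 211 to 347 in Jnk1Jnk2 and 128 to 226 in control. Macrophage genes summed to 169 to 256, 210 to 240 and 171 to 204 FPKM, and stellate genes to 118 to 154, 102 to 179 and 88.8 to 117, in the same order. Lymphocyte genes summed to at most 4.67 FPKM and adipocyte genes to at most 1.95 in these groups, and muscle genes to at most 1.62 apart from the library named above. Neutrophil genes summed to 14 to 21.7 FPKM in Jnk2, 45.9 to 55.4 in Jnk1Jnk2 and 25.9 to 87.3 in control. Of 8 hepatocyte marker loci, 1 was lower in Jnk2 (4.96% of all loci were), and 3 were higher and 2 lower in Jnk1Jnk2. The Jnk1Jnk2 counts of endothelial and hepatocyte markers do not set them apart from other loci. The part of all these cells in the members' changes was not tested.

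As a description of how the members go together, each was correlated with the mean of the members' standardised values over the 24 libraries, which include the gene itself and share diets and genotypes. Pearson's r was highest for Acadl (0.92) and Hadhb (0.91) and lowest for Cpt1a (0.49), Etfdh (0.48) and Hadh (0.42). Outside the members, loci among those most like that mean were Hsd17b11 (0.96), a lipid droplet dehydrogenase gene, Mdh2 (0.93), for mitochondrial malate dehydrogenase, and Gnas (0.91), for a G protein subunit. They were followed by Cyp4b1 (0.90), Acot2 (0.89), Nt5dc2 (0.89), Crat (0.89), the peroxisomal thiolase gene Acaa1b (0.88) and D930001I22Rik (0.87).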

How the data were processed

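The values used are FPKM per Cufflinks locus and library, in a table of 31027 loci that the authors deposited. Per the submitters' processing notes, TopHat, Cufflinks and Cuffdiff were run on mm10; no versions or strand setting are named. Because FPKM are normalized values, limma was used in place of a count test. The 1 locus with no name was left out. Absolute depth is unknown, and relative depth came from the step sizes of low values.

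limma 3.58.1 (R 4.3.3) was run with a mean-variance trend on log2(FPKM + 1), all 24 libraries together with 1 mean for each group from the sample titles (16 residual degrees of freedom). Tested were the 10561 loci averaging 1 FPKM or more, with Benjamini-Hochberg adjustment in each of 15 contrasts and 1 added after values were seen. The pseudocount understates the change of low genes. The fit was tested on simulated data. An exact test of 3 libraries against 3 cannot reach 0.05 and was not used. Alternatives were pseudocounts of 0.1 and 0.01, filters of none and 5 FPKM, size factors, quantile normalization, array weights, a replicate block, fits restricted to the compared groups, each library left out, and removal of the length trend: a loess (span 0.5) of each library's deviation on log2 length from GENCODE vM21, known for 89.5% of tested loci. For the other pathway genes and regulators the scaling alternatives were added after their counts were seen, and genes named there for a changed call were chosen after their values were seen.

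The members, gene lists and cell markers were chosen with earlier results of these data known. Named are all members in every contrast, up to 6 called genes of the other pathway genes with the smallest adjusted p in a contrast, all regulators in Jnk1Jnk2 against control, and the 10 loci most like the members' mean; not all are printed, and 1 of the 10 is not reported here. Promoter windows came from RefSeq (GRCm38.p6). Scripts used Python 3.11.15 with numpy 2.4.6, scipy 1.17.1, pandas 2.3.3 and matplotlib 3.10.9.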

Additional observations from a re-analysis of the deposited data

Results flagged for a closer look

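By the interaction in limma, the difference between Jnk2 and control was higher on high fat than on chow at 7 genes. Of all loci, 6.18% were called in that direction. On the log2 scale the values were Cpt2 0.65, Slc25a20 0.41, Acadm 0.59, Acadvl 0.52, Hadha 0.51, Hadhb 0.89 and Etfdh 0.54. The count ran from 2 to 7 as single libraries were left out, with Cpt2 and Hadhb called each time. Between diets in Jnk2 itself, Acadvl (0.20, adjusted p = 0.198) and Etfdh (0.21, adjusted p = 0.166) were not called, and each differed by -0.32 in control. The difference between Jnk1Jnk2 and control was higher on high fat than on chow at 6 genes, against 15.8% of all loci. The values were Slc25a20 0.60, Acadm 0.51, Acadl 0.56, Acadvl 0.52, Hadhb 0.96 and Hadh 0.43. Of these 6, Slc25a20 and Hadhb were called after quantile normalization, and they and Acadvl with the length trend removed. Both interactions share the control libraries.

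On high fat the change in Jnk1Jnk2 differed from the sum of the changes in Jnk1 and Jnk2 at 4 genes: Cpt1a by -1.13, Cpt2 by -0.59, Hadha by -0.64 and Etfdh by -0.48. Of all loci, 24.4% departed downward. With the length trend removed only Cpt1a and Cpt2 of the 4 were called.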

How the results depend on the processing

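Of 2860 member changes recomputed under other settings, 2659 kept their direction or their place on the same side of the threshold, 159 lost the call, 41 gained one and 1 reversed: Hadha between Jnk1Jnk2 and Jnk2 on high fat, at 0.03 with the length trend removed. Of the 2659, 121 changed sign while called under neither setting. The 2659 include changes that were not called in the main fit and stayed uncalled. The 159 lost calls are therefore a larger share of the changes called in the main fit than of the 2860. Counts of called members moved as follows. In Jnk2 on high fat 0 were called in the fit of only these groups (7 to 9 with a library left out). In Jnk1Jnk2 on high fat 4 were called after quantile normalization (6 to 7). For the diet in control the count was 5 with size factors, 4 after quantile normalization, 4 with array weights, 3 with the replicate block and 5 with the length trend removed (1 to 4), and in Jnk1 2 with size factors, array weights or the length trend removed. For the diet in Jnk2 it was 4 with size factors, quantile normalization, the length trend removed or only these groups (4 to 7). For the interaction with Jnk2 it was 3 without a filter and 4 with size factors, the length trend removed or only these groups (2 to 7), and with Jnk1Jnk2 2 after quantile normalization and 3 with the length trend removed (4 to 6). Non-additivity on high fat gave 2 with the length trend removed (3 to 4), and Jnk1Jnk2 against Jnk2 gave 3 with it removed and 1 in only these groups (3 to 5). The causes were not tested.

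The replicate numbers did not pair the libraries: same-numbered libraries correlated at -0.0158 on average in their deviations from group means, and 4 of 24 matched best with their own number. With the replicate block the count was 8 for the interaction with Jnk2, 5 for that with Jnk1Jnk2 and 3 for the diet in control.

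Over all loci, the fit of only the groups compared called 126 in Jnk2 on high fat against 1311. Size factors moved the median change between Jnk1Jnk2 and Jnk2 on high fat from -0.14 to -0.03. Absolute depth is unknown, so no limit from counting error is given.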
